A study of Mus musculus with 6 samples.

Results

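The vomeronasal receptor genes of the mouse form large clusters, and their DNA methylation was followed here in a cell type outside the nose, the lung endothelium. The members are the windows of 1000 bp, on the mm10 build, that overlap the span plus 2 kb on each side of an autosomal protein-coding gene whose symbol starts with Vmn1r or Vmn2r. That rule took 354 genes, 123 of them Vmn2r and 231 Vmn1r, and 2009 windows, 0.119% of the 1683697 windows on autosomes for which every sample had a value. Of the 2009 windows, 1404 belonged to Vmn2r genes and 605 to Vmn1r genes, and no window was shared between the families. A window counts as extreme where any sample lies under 0.01% or above 99.99% methylation. There were 200 extreme windows and 1809 without an extreme value, and both classes are reported apart.

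Endothelial cells, the cells that line blood vessels, had been sorted by flow cytometry from lungs of wild-type mice. The groups are aged (18 months, 3 samples) and mAdu (8 months, 3 samples), and no treatment or transgene is named for either. The design states both ages without tying them to sample titles, and the samples titled aged were taken as the 18-month ones. The labels do not say whether samples came from separate animals or from pools, so p-values between samples measure only how far these samples vary, and that variation may be technical.

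Vomeronasal receptors are G protein-coupled receptors of sensory neurons in the vomeronasal organ, where they detect pheromones and other chemical cues. Vmn1r genes encode the V1R class, whose ligand pocket lies among the membrane helices and whose neurons signal through the G protein subunit Gnai2. Vmn2r genes encode the V2R class, which carries a large extracellular domain and is found in neurons with Gnao1. Each neuron expresses a very small part of this repertoire, and in other tissues the genes are as a rule silent. DNA methylation in mammals sits almost wholly on cytosines followed by guanine (CpG sites), and starts of broadly expressed genes commonly hold dense, unmethylated CpG sites.

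The sequences of gene starts show how few CpG sites most of these genes hold there. CpG sites were not counted over the windows of 1000 bp, on which the methylation values rest. Promoters of 300 bases, from 250 before to 50 after the start, came from RefSeq (GRCm38.p6, the sequence of mm10) and were found for 322 of the 354 genes, as 323 starts. The examples below were picked after their values were seen: Vmn1r126 for the lowest start window among the members, Vmn1r60 for the highest, Vmn2r29 for the largest number of CpG sites, Vmn2r1 as a co-receptor gene of the V2R class, and Gnao1 as a gene of the same neurons that is not a member. They are written 5′ to 3′ on the strand of the gene, in lower case, with each CpG in capitals.
Vmn1r126 (chr7:21301418-21301717, minus strand): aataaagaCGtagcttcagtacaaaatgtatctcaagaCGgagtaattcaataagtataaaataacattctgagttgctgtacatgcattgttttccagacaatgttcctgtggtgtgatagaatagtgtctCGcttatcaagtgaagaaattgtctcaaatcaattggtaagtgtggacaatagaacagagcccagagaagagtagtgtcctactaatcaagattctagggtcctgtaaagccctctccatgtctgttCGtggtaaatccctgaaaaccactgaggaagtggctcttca
Vmn1r60 (chr7:5545050-5545349, minus strand): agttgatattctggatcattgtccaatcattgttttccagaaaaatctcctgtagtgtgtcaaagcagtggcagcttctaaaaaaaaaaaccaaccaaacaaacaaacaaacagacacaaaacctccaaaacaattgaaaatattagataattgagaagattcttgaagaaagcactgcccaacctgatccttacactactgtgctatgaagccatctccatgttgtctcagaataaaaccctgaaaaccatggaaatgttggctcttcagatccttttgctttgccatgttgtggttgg
Vmn2r29 (chr7:7278240-7278539, minus strand): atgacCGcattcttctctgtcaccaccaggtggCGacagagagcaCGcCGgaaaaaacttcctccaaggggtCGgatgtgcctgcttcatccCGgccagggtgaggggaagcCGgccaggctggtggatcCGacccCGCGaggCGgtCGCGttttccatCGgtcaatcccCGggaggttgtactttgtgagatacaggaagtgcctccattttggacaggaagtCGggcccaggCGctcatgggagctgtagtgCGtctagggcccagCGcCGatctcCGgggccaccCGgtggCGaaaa
Vmn2r1 (chr3:64081392-64081691, plus strand): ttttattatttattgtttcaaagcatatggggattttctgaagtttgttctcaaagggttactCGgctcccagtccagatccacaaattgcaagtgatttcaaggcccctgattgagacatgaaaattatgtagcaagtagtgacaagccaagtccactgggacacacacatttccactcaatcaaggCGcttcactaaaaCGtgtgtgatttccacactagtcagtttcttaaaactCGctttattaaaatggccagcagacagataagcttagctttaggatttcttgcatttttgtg
Gnao1 (chr8:93810588-93810887, plus strand): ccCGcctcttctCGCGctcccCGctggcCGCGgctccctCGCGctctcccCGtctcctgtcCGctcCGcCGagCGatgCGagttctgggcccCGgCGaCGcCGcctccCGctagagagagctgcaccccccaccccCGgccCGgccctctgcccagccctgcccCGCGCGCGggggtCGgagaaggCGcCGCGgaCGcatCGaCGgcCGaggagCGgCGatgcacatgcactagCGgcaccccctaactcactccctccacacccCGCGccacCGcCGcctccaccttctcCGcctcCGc

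Because of how they were picked, the member starts among these 5 span the members' range of promoter CpG content and start-window methylation. That range covers only start windows with a value, and Gnao1 lies outside it. The promoter of Vmn1r126 held 4 CpG sites, and its start window had 3.02%, 35.8% and 4.17% methylation in aged samples, against 31.8%, 21.7% and 2.23% in mAdu samples. The promoter of Vmn1r60 held 0 CpG sites, and its start window lay at 92.1%, 82.7% and 88.5% in aged and at 86.6%, 90.5% and 92.1% in mAdu samples. Groups overlapped at both genes, and at Vmn1r126 samples of each age were found both under 5% and above 30%. Vmn2r29 had 23 CpG sites and 22.1%, 19.1% and 27.4% in aged samples, against 22.5%, 30.2% and 18.4% in mAdu samples. Vmn2r1 had 4 CpG sites and a mean of 65.7% over the 6 samples. Gnao1, with 42 CpG sites, averaged 0.663% and stayed under 2% in every sample.

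In the lung endothelium vomeronasal receptor windows were less methylated than the rest of the autosomes, and less than the other clustered families set beside them. Their mean level was 65.0%, 63.7% and 64.7% in aged samples, against 64.3%, 66.7% and 65.4% in mAdu samples. All windows outside the members averaged 73.4%, olfactory receptor windows 71.0% and zinc finger gene windows 74.6%. Olfactory receptors are the odour receptors of the main nasal epithelium, and zinc finger genes encode DNA-binding proteins, many of them repressors of transposons. The 1104 olfactory receptor genes and 388 zinc finger genes were taken by symbol (Olfr or Or, and Zfp, before a digit) and treated in the same way as the members.

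The difference was of the same direction in 6 of 6 samples for each of these comparisons. The difference of vomeronasal windows was -8.46 points from all other windows (range over samples -9.42 to -6.77), -6.03 points from olfactory receptor windows and -9.57 points from zinc finger windows. Each gave an exact two-sided sign-flip permutation p = 0.03125, the smallest that 6 samples allow, and the value was also 0.03125 after Benjamini-Hochberg adjustment over the 6 comparisons of window classes made. Among windows without extreme values the differences were -7.73, -5.30 and -8.74 points, with the same p of the exact permutation test. The table held only 37.4% of the windows that the members' spans could cover (2009 of 5371), close to the 41.6% for olfactory receptor genes, against 75.8% for zinc finger genes and 78.4% for all protein-coding genes. The part of this coverage of the genome in the differences of level was not tested. The files give no read coverage, so the depth behind a window is unknown. Vomeronasal receptor arrays include near-identical gene copies, and how reads were placed among them is not stated, so values of single genes within an array are uncertain.

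**Figure D1:**
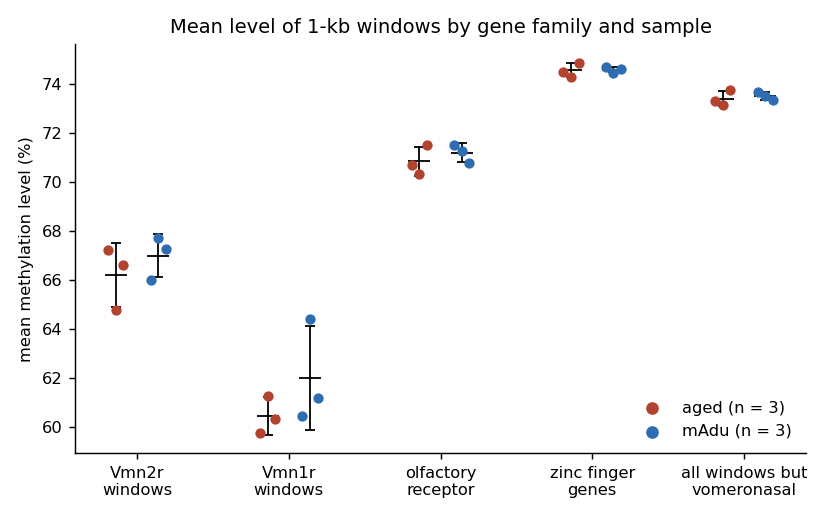
Mean methylation level (percent, y axis not starting at 0) of the windows of each gene class in the 3 aged and 3 mAdu samples, as points, with the mean and SD of each group as bars. The 6 samples lie between 64.8% and 67.7% for Vmn2r windows and between 59.8% and 64.4% for Vmn1r windows, all under every sample of the other classes shown.

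Vmn2r windows were more methylated than Vmn1r windows, and the gap came with a single Vmn1r cluster. Vmn2r windows lay at 67.2%, 64.8% and 66.6% in aged and at 66.0%, 67.7% and 67.3% in mAdu samples. Vmn1r windows lay at 59.8%, 61.3% and 60.3% in aged and at 60.5%, 64.4% and 61.2% in mAdu samples. The difference of 5.36 points had the same sign in 6 of 6 samples (exact two-sided sign-flip permutation p = 0.03125), and it was 2.54 points without extreme windows. Once the locus with most windows, the Vmn1r91 to Vmn1r183 cluster on chromosome 7, was left out, Vmn2r windows averaged 66.6% and Vmn1r windows 66.4%. The difference there was 0.231 points (exact permutation p = 0.8125), so the gap between the families was not detectable outside that cluster.

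Windows that touched a receptor gene's span had a slightly higher mean than windows in the 2-kb flanks alone, and the direction of that difference depended on the same cluster. The 1480 windows inside genes averaged 65.5% and the 529 flank windows 63.6%, a difference of 1.93 points (exact two-sided sign-flip permutation p = 0.03125). Without the Vmn1r91 to Vmn1r183 cluster the difference was -1.48 points (exact permutation p = 0.09375). Without the 3 loci richest in extreme windows it was -0.913 points (exact permutation p = 0.03125). These are settings chosen after seeing the data, and the mean difference over all members does not describe the single clusters.

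Intermediate methylation set the members apart from the bulk of the genome. Among windows without extreme values, 24.7% of vomeronasal windows averaged 40 to 60% methylation, against 13.8% of olfactory receptor windows and 9.90% of all other windows. Windows from 80 to 100% made up 13.7% of vomeronasal windows, against 23.2% of olfactory receptor windows and 44.3% of all others. Most vomeronasal windows, 57.1%, lay between 60 and 80%, and only 13 of 1809 (0.719%) lay under 20%. Members also varied more between samples of a group: the median SD within a group was 6.35 points for vomeronasal windows of 40 to 60%, against 5.18 points for olfactory receptor windows and 4.38 points for all other windows of that level. No test was run on these shares, which describe windows that share loci and samples.

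**Figure D2:**
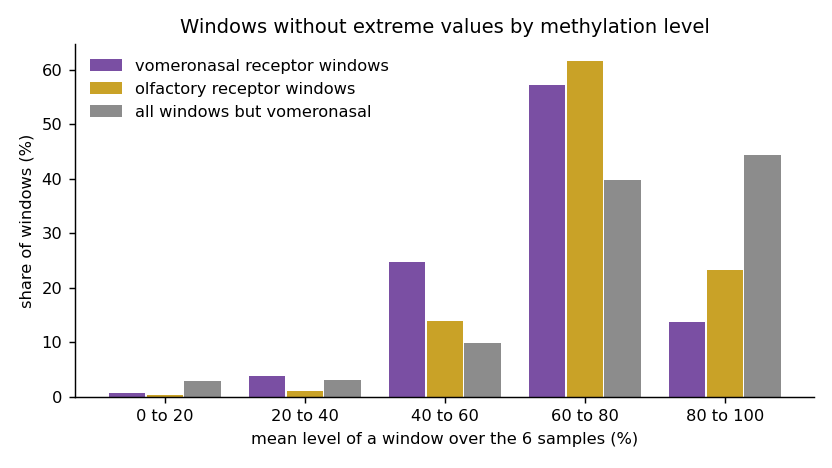
Share of windows without extreme values (percent, y axis) by their mean methylation level over the 6 samples (percent, x axis, in bands of 20) for vomeronasal receptor windows, olfactory receptor windows and all windows but the vomeronasal ones. The vomeronasal bars stand highest of the 3 at 40 to 60% (24.7%) and lowest at 80 to 100% (13.7%).

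Values at the limits of the scale were common among the members, and most were not shared by all samples. Of vomeronasal windows 9.96% were extreme, against 1.40% of olfactory receptor, 1.15% of zinc finger and 1.71% of all other windows. In single samples the share of vomeronasal windows at a limit was 5.72%, 5.92% and 5.08% in aged, against 5.28%, 6.17% and 5.87% in mAdu samples. That share was 4.93 points above that of all other windows on average, with the same sign in 6 of 6 samples (exact two-sided sign-flip permutation p = 0.03125). Without the 3 loci that held most extreme windows, a setting chosen after seeing the data, the excess was 1.31 points (exact permutation p = 0.03125). Between the ages the share differed by -0.199 points (exact two-sided permutation p = 0.6), and the groups overlapped.

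Within the 200 extreme windows, opposite limits often met in the same place, which was also common in extreme windows outside the members. In 92 of the 200, 1 sample or more lay under 0.01% while another lay above 99.99%. In 49 only the lower limit was reached and in 59 only the upper. Outside the members both limits were reached in 11423 of 28720 extreme windows. All 6 samples were at a limit in 38 of the 200 member windows, including 7 with all 6 under 0.01% and 18 with all 6 above 99.99%. Outside the members this held for 1423 of 28720 extreme windows, so limits shared by all samples were more common among the members. The values of a window spanned more than 50 points in 165 of the 200. Of the 684 extreme values among the members, 266 were exactly 0 or 100%. Just outside the limit, 17 windows had their closest value between 0.01 and 0.1 points from 0 or 100%, and 38 between 0.1 and 1 points.

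Extreme windows lay beside each other more often than singly. They formed 106 runs of adjacent windows, and 139 of the 200 stood in runs of 2 or more. The longest run held 12 windows over Vmn2r35, a V2R gene (chromosome 7, 7798001 to 7810000), with means of 96.0%, 36.6% and 36.8% in aged, against 97.6%, 100% and 35.2% in mAdu samples. In each group at least 1 sample was above 90% and at least 1 under 40%. Over Vmn2r21 (chromosome 6, 123525001 to 123531000) a run of 6 had means of 36.2%, under 0.01% and 97.5% in aged samples, against 0.0133%, 0.0486% and 77.7% in mAdu samples. These runs did not follow the age groups: aged replicate 3 and mAdu replicate 3 were the high samples over Vmn2r21, and aged replicate 1 with mAdu replicates 1 and 2 over Vmn2r35.

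Genes wholly covered by extreme windows showed each of these forms. Vmn2r46 (8 of 8 windows) and Vmn2r47 (10 of 10 windows) were at 100% in all 6 samples. Vmn1r63 had 11 of 11 windows extreme and means of under 0.01%, 1.49% and under 0.01% in aged, against under 0.01%, 36.4% and 26.4% in mAdu samples. A run of 5 of its windows (chromosome 7, 5809001 to 5814000) was under 0.01% in all 6 samples. At Vmn1r247, with 6 of 6 windows extreme, aged samples had under 0.01%, 100% and 2.21%, and mAdu samples 50.5%, 66.8% and 100%. At Vmn1r258, with 5 of 5, aged samples had under 0.01%, 100% and 46.7%, and mAdu samples under 0.01%, 100% and 100%. At both genes each group held samples near opposite ends of the scale or far apart, so the groups overlapped.

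Joining genes within 500 kb of each other gave 31 loci, of which 28 had windows in the table, and extreme windows were unevenly spread over them. The 18 loci with no extreme window held 655 member windows. By contrast, 3 loci held 146 of the 200 extreme windows, 73%. The first was the largest locus by windows, Vmn1r91 to Vmn1r183 (chromosome 7, 20101158 to 24055691), an array of 86 V1R genes with 257 windows, 88 of them extreme. The second was Vmn2r19 to Vmn2r27 (chromosome 6, 123308333 to 124231784), 9 V2R genes with 35 of 151 windows extreme. The third was Vmn2r46 to Vmn1r71 (chromosome 7, 9754636 to 10749538), 13 genes of both classes with 23 of 71 windows extreme. Outside these 3 loci 54 of 1530 windows were extreme, 3.53%, and the mean level was 66.6%.

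The Vmn1r91 to Vmn1r183 array was both low and variable. Its mean level was 52.3%, 56.1% and 51.1% in aged, against 52.8%, 59.95% and 53.5% in mAdu samples. The median SD of a window within a group was 17.9 points, against 5.22 points over the members outside it. With the extreme windows removed the array's 169 other windows averaged 55.8%, with a median SD of 9.22 points. The array's level was therefore below that of the other members with and without the extreme windows, while the groups overlapped.

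The other large loci were closer to each other in mean level. The locus from Vmn2r90 to Vmn1r237 on chromosome 17 (36 genes, 239 windows) averaged 64.5%, and its samples lay within 1.46 points of each other. On chromosome 7 the Vmn2r29 to Vmn2r37 locus (17 V2R genes, 180 windows) averaged 61.4% and the Vmn2r57 to Vmn2r126 locus (8 V2R genes, 173 windows) 65.4%. The Vmn2r19 to Vmn2r27 locus spanned 17.2 points between samples, with 65.6%, 56.0% and 65.0% in aged, against 59.6%, 66.2% and 73.1% in mAdu samples. Without its extreme windows it spanned 5.16 points. The Vmn2r1 to Vmn2r7 locus on chromosome 3 (123 windows) averaged 71.2% and held no extreme window.

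The lowest locus of all was Vmn1r55 to Vmn1r65 (chromosome 7, 5146490 to 6011010, 47 windows), which contains Vmn1r63. It had 44.6%, 46.5% and 48.0% in aged, against 44.3%, 59.5% and 52.5% in mAdu samples. Without its 13 extreme windows it averaged 60.7%, against 49.2% with them.

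**Figure D3:**
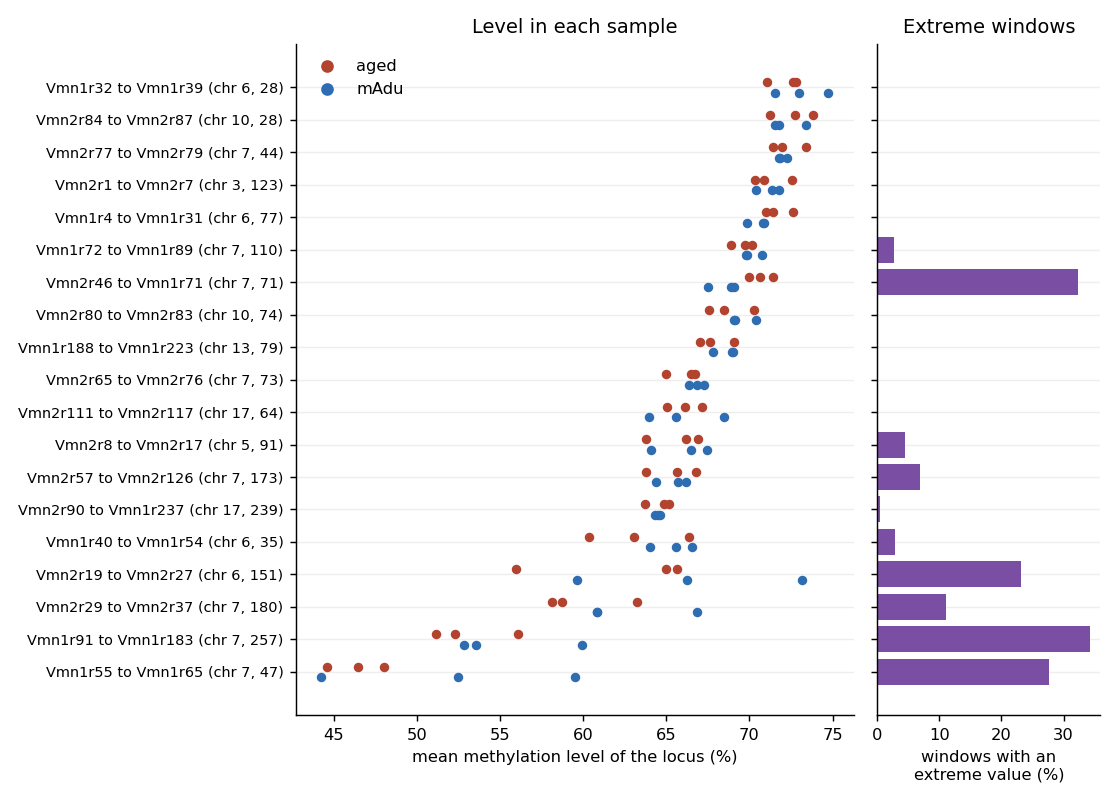
Left, mean methylation level (percent, axis not starting at 0) of each locus with 20 or more windows in the 3 aged (upper, red) and 3 mAdu (lower, blue) samples, with chromosome and number of windows in the row names; right, share of its windows that were extreme (percent). The 5 loci with the highest levels have no extreme window, and the Vmn1r91 to Vmn1r183 array has the largest share, 34.2%.

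Around their starts vomeronasal receptor genes lacked the unmethylated stretch that marks most protein-coding starts. Of 113 start windows with a value, 1 (0.885%) had a mean under 20%, against 0.391% of olfactory receptor, 83.1% of zinc finger and 64.9% of all protein-coding start windows. The mean at the start was 57.9% for vomeronasal, 71.9% for olfactory receptor, 13.7% for zinc finger and 24.6% for all protein-coding genes. The median number of CpG sites per promoter was 1 for vomeronasal receptors, and 78 of 323 promoters (24.1%) held none, against 4.40% of all protein-coding promoters, whose median was 14. Olfactory receptor promoters also had a median of 1, and 316 of 942 (33.5%) held none. Only 3 vomeronasal promoters held more than 4 CpG sites.

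Along 10 kb on each side of the start the profile of the members varied less than that of all protein-coding genes. It varied more than that of olfactory receptor genes, which stayed between 69.1% and 72.3%. Vmn2r genes were lowest in the first 2 kb after the start, at 58.4%, and reached 67.6% at the far upstream end. Vmn1r genes ranged from 59.3% just before the start to 67.2% at 4 to 6 kb after it. All protein-coding genes dipped to 42.5% in the first 2 kb, against 73.7% at the far downstream end. A table window exists for 35.0% of vomeronasal starts and for 92.7% of all protein-coding starts, so the profile describes the starts that the table covers.

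**Figure D4:**
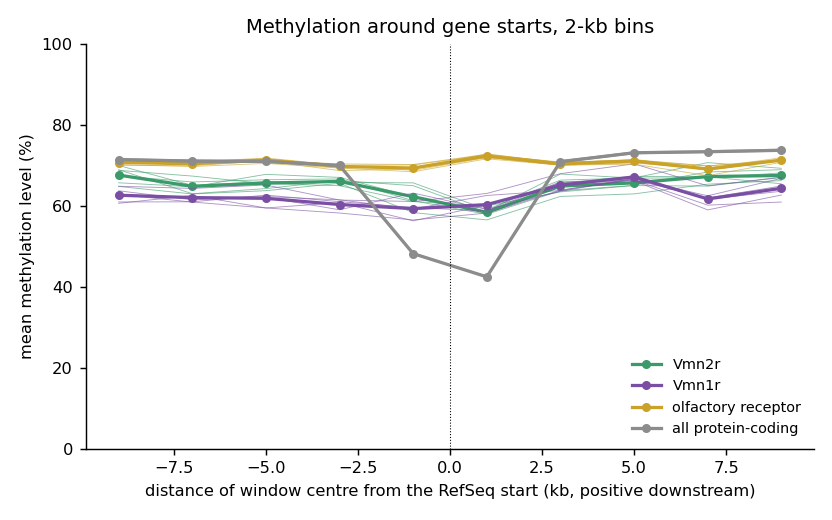
Mean methylation level (percent, y axis) of windows by distance of their centre from the RefSeq start (kb, x axis, in bins of 2 kb, positive downstream) for Vmn2r, Vmn1r, olfactory receptor and all protein-coding genes; thick lines are means over the 6 samples and thin lines single samples. The means of the receptor families stay above 58% throughout, while all protein-coding genes fall to 42.5% in the bin after the start.

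In the mean over all start windows the age groups did not overlap, by a small margin that rested on extreme windows. Their mean was 56.3%, 57.4% and 56.5% in aged, against 58.6%, 60.1% and 58.2% in mAdu samples. Every aged sample lay under every mAdu sample, by 2.22 points on average. Without the 14 extreme windows among the 113 the means were 56.2%, 56.1% and 58.4% in aged, against 57.5%, 59.5% and 58.8% in mAdu samples, and the groups overlapped. The groups also overlapped in the start windows of Vmn2r genes alone and of Vmn1r genes alone. This class was singled out after its values were seen, and no test was planned for it. With 3 samples against 3 an exact permutation test cannot give a p below 0.1.

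The mean level of the members did not differ between ages beyond the spread between samples. It averaged 64.5% ± 0.673 in aged and 65.5% ± 1.20 in mAdu samples (SD, n = 3 each), a difference of -1.02 points (exact two-sided permutation p = 0.3). For Vmn2r windows the difference was -0.790 points (exact two-sided permutation p = 0.5) and for Vmn1r windows -1.56 points (exact two-sided permutation p = 0.3). Without extreme windows the difference over all members was -0.476 points (exact two-sided permutation p = 0.5). Over all windows but the members it was -0.113 points. Single samples set the size of these differences: without mAdu replicate 2 they were -0.403 points over all members, -0.423 for Vmn2r and -0.357 for Vmn1r windows, and without mAdu replicate 1 they were -1.60, -1.28 and -2.35 points. Without aged replicate 2 they were -0.641, -0.0673 and -1.97 points, and without aged replicate 1 the Vmn2r difference was -1.30 points. The exact two-sided permutation p cannot fall below 0.2 with 3 samples against 2, so these settings could not give a small p. It was at that limit without mAdu replicate 1 for all members and for Vmn2r windows, with the groups not overlapping. The same held without aged replicate 2 for Vmn1r windows.

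Single loci could give no call, since 3 samples against 3 allow no exact permutation p below 0.1. The aged mean was the lower in 16 of 28 loci, and after Benjamini-Hochberg adjustment over the loci the smallest p of the exact permutation tests was 0.7. Groups did not overlap at 3 of the 28 loci (10.7%). The share was 10% for all single windows, a smaller unit, and none was computed for comparable loci elsewhere. At Vmn2r18, a V2R gene standing alone on chromosome 5, levels were 73.6%, 75.3% and 75.3% in aged, against 77.7%, 78.4% and 78.3% in mAdu samples. At Vmn1r4 to Vmn1r31 on chromosome 6 they were 71.0%, 71.4% and 72.6% in aged, against 70.8%, 70.9% and 69.8% in mAdu samples. At Vmn2r46 to Vmn1r71 they were 70.6%, 69.9% and 71.4% in aged, against 69.1%, 68.9% and 67.5% in mAdu samples. Aged samples were thus lower at the first of these loci and higher at the other two, and without extreme windows the groups overlapped at Vmn2r46 to Vmn1r71.

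Across single windows 2 of 2009 members passed limma's test between the ages with Benjamini-Hochberg adjustment over all windows, which is 0.0996%, against a background of 0.0211% (355 of 1683697). Of these, 1 was higher and 1 lower in aged samples, directions with a background of 0.00891% and 0.0122%. Both held extreme values and changed almost over the whole scale, in opposite directions. A window in the flank of Vmn1r94, a V1R gene of the chromosome 7 array (20170001 to 20171000), had 89.8%, 100% and 100% in aged samples, while all 3 mAdu samples lay under 0.01% (difference 96.6 points, limma adjusted p = 0.000354). A window inside Vmn2r38, a V2R gene (chromosome 7, 9079001 to 9080000), had under 0.01%, under 0.01% and 2.195% in aged, against 98.5%, 98.9% and 80% in mAdu samples (difference -91.8 points, limma adjusted p = 0.00458). Neither passed on the logit scale with values held between 1% and 99%, where limma's adjusted p was 0.0842 for Vmn1r94 and 0.302 for Vmn2r38. Among windows without extreme values limma called 0 of 1809 members, against 59 of 1654777 windows in all.

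The Vmn2r38 window stood in a longer run. The 5 adjacent extreme windows around it (chromosome 7, 9077001 to 9082000) had means of 36.3%, 38.6% and 39.3% in aged, against 64.7%, 99.4% and 78.9% in mAdu samples. The groups did not overlap over the run, which was described because it held a called window. Leaving out any 1 sample left both windows past the threshold, with limma's adjusted p up to 0.00350 for Vmn1r94 and up to 0.0250 for Vmn2r38. The number of member windows called was 15 without aged replicate 1, 6 without aged replicate 2, 7 without mAdu replicate 1 and 3 without each of the other samples. Calls among all windows rose with the same omissions, to between 680 and 998 of 1683697, so the members' share was 0.149% to 0.747%, against 0.0404% to 0.0593% of all windows.

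Looser measures gave a larger share of small p-values than all windows had, and a smaller share of separated groups. At an unadjusted limma p under 0.05 there were 147 member windows (7.32%), 94 lower and 53 higher in aged samples, against 4.67% of all windows. Limma drew the variance of each window toward a trend over all windows. Members spread more within a group, with a median SD of 5.59 points against 3.43 for all other windows. The part of this in the share of small p-values was not tested. Groups did not overlap in 177 member windows (8.81%), against 10% of all windows. Of those, 104 (5.18%) were lower and 73 (3.63%) higher in aged samples, against 5.28% and 4.76% of all windows. The next windows by p did not pass. A flank window of Vmn1r114 without extreme values (chromosome 7, 20810001 to 20811000) had 88.0%, 87.3% and 79.8% in aged, against 46.3%, 42.5% and 34.4% in mAdu samples (difference 44.0 points, limma adjusted p = 0.0689). The groups were clearly apart there, and the adjusted p just missed the threshold of 0.05. Windows of Vmn2r21, Vmn2r37 and Vmn1r128 with higher values in aged samples, and of Vmn2r35, Vmn2r13, Vmn2r15 and Vmn2r39 with lower ones, had limma adjusted p between 0.706 and 0.978. The Vmn2r21 window passed without mAdu replicate 3 (limma adjusted p = 0.000773), the sample that stood at 50.8% there while the other mAdu samples were under 0.01%.

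At the level of whole genes no vomeronasal receptor passed the test between the ages. Of the 354 genes, 15 had no window, 111 had 1 or 2, and 228 had at least 3 and entered limma's fit over 19634 protein-coding genes, 117 of them Vmn2r and 111 Vmn1r. None of the 228 passed the Benjamini-Hochberg adjustment, against a background of 0% (0 of 19634). At an unadjusted limma p under 0.05 there were 24 members (10.53%), 17 lower and 7 higher in aged samples, against 4.78% of all genes. Limma's variance trend was fitted over all genes here, and its part in this share was not tested. Groups did not overlap in 27 members (11.8%), against 9.9% of all genes, with 17 lower and 10 higher in aged samples against 5.34% and 4.55% of all genes. The median difference of the members was -0.239 points and that of all genes -0.0404 points. For 71 of the 228 members (31.1%) the whole 95% interval fell inside 5 points of no difference, against 90.3% of all genes tested, so small differences were less well bounded here than elsewhere.

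Among genes lower in aged samples, the 5 with the smallest p did not pass. Vmn2r75 had 65.2%, 64.9% and 65.4% in aged, against 69.5%, 70.7% and 68.2% in mAdu samples, a difference of -4.32 points (95% interval -6.07 to -2.56, limma adjusted p = 0.759). Vmn1r37 had 75.7%, 73.2% and 77.2% in aged, against 81.6%, 79.4% and 81.7% in mAdu samples, a difference of -5.50 points (limma adjusted p = 0.925). In both genes every aged sample lay under every mAdu sample. Vmn2r18, Vmn1r149 and Vmn2r15 differed by -3.42, -15.8 and -4.73 points. Of the 4 windows of Vmn1r149, 2 were extreme. With flanks of 5 kb the differences of Vmn1r149 and Vmn2r15 were 0.933 and 1.11 points, so their direction depended on the width taken. That of Vmn2r75 was -2.82 points with these flanks, and that of Vmn2r15 -9.66 points with no flank.

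Among genes higher in aged samples, the 5 with the smallest p also did not pass. Vmn1r257, a V1R gene of the chromosome 7 array with 3 windows, had 60.3%, 86.0% and 76.2% in aged, against 40.9%, 49.3% and 41.9% in mAdu samples, a difference of 30.2 points (95% interval 14.1 to 46.2, limma adjusted p = 0.925). Vmn1r114 had 81.3%, 68.1% and 75.5% in aged, against 54.8%, 66.0% and 61.3% in mAdu samples, a difference of 14.2 points. Groups did not overlap in either gene, and the spread within the aged group was the wider. With flanks of 5 kb the Vmn1r257 difference was 7.65 points. Vmn1r4, Vmn2r99 and Vmn2r73 differed by 2.44, 5.13 and 2.03 points.

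**Figure D5:**
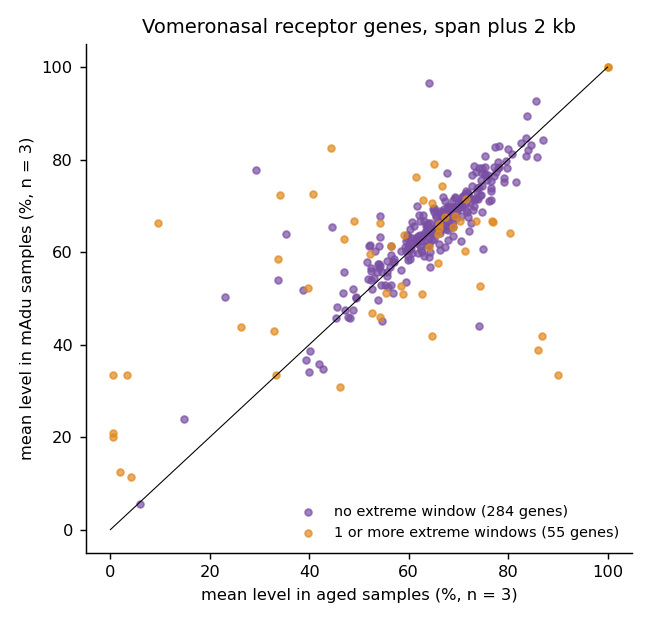
Mean methylation level of each vomeronasal receptor gene with at least 1 window in the aged samples (percent, x axis, n = 3) and the mAdu samples (percent, y axis, n = 3), with the line of equal levels. Genes without an extreme window (284, purple) lie mostly along the line, and many of the points far from it are genes with extreme windows (55, orange).

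By level, the 183 genes with at least 3 windows and no extreme window ranged from 5.73% to 84.2%. The highest of these was Vmn1r1, which stands alone on chromosome 1, at 82.5%, 82.4% and 85.7% in aged, against 84.7%, 86.9% and 82.7% in mAdu samples. Vmn1r20, Vmn2r89, Vmn1r88 and Vmn1r32 followed, at 83.0%, 82.2%, 81.0% and 79.7%. Neighbours in this order differed by less than the larger of their SDs over the 6 samples, which ran from 1.02 to 2.72 points. The order depended on the flank: Vmn1r1 averaged 79.2% and Vmn1r20 87.2% with no flank, while Vmn1r1 averaged 79.8% and Vmn1r32 83.3% with flanks of 5 kb. Genes with 1 or 2 windows stand outside this order, and Vmn1r256, with 1 window, averaged 89.2%.

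The 5 lowest of the 183 genes all belonged to the Vmn1r91 to Vmn1r183 array. Vmn1r163 (chromosome 7, 23055540 to 23056463) had 3.26%, 5.55% and 9.11% in aged, against 3.80%, 4.33% and 8.32% in mAdu samples, and its 4 windows were alike. It was the only gene of the 5 that was low in every sample. Vmn1r112 had 25.1%, 20.01% and 24.2% in aged, against 27.0%, 59.9% and 64.3% in mAdu samples. Vmn1r252, Vmn1r126 and Vmn1r253 averaged 37.0%, 39.3% and 43.8%, with sample values between 10.9% and 77.0%. Several of these low levels moved with the flank: Vmn1r112 averaged 26.9%, Vmn1r252 22.9% and Vmn1r126 22.7% with no flank, against 42.6%, 57.0% and 54.1% with flanks of 5 kb. Low genes with 1 or 2 windows lay elsewhere too, such as Vmn1r210 on chromosome 13, whose 1 window averaged 19.4%.

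The lowest single windows without extreme values included all 4 windows of Vmn1r163, at 5.22% to 6.30%. The lowest of all, at 0.567%, lay at the edge of Vmn1r4 (chromosome 6, 56923001 to 56924000) and also overlaps the span of Nt5c3, a nucleotidase gene that is not a member. The next Vmn1r4 window, which overlaps both genes too, averaged 15.3%. A window inside Vmn2r48 had 0.837%, 1.25% and 14.9% in aged, against 24.0%, 19.8% and 17.5% in mAdu samples (limma adjusted p = 0.978). Flank windows of Vmn2r87 and Vmn1r117 averaged 12.1% and 15.9%, and the start window of Vmn1r126 16.4%.

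Receptors with known ligands or roles lay within the common range. Vmn2r1 to Vmn2r7, the co-receptors that accompany other V2R proteins, had gene means from 67.4% (Vmn2r3) to 72.7% (Vmn2r5), and 0 of the 7 passed. Vmn2r116, the receptor of the male pheromone ESP1, had 66.2%, 63.9% and 62.7% in aged, against 62.9%, 67.7% and 64.5% in mAdu samples. Vmn2r115, a receptor of the juvenile pheromone ESP22, averaged 64.0%. Their groups overlapped, and the 95% interval of the Vmn2r116 difference ran from -4.42 to 2.86 points.

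Vmn2r26, which responds to peptides, averaged 68.0%, and Vmn2r88, a receptor of haemoglobin, 71.5%. Vmn1r89 and Vmn1r85, receptors of sulfated steroids, averaged 72.2% and 69.4%. Vmn1r69 averaged 65.4% and Vmn1r185 63.3%. Vmn1r85 and Vmn1r69 rest on 2 windows each and Vmn1r185 on 1, so these 3 were not tested. Groups overlapped in all of these genes.

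Other genes of the vomeronasal system came from a list of 31, of which 29 were found and 27 had at least 3 windows. None passed limma's test with Benjamini-Hochberg adjustment, against a background of 0% (0 of 19634). Of the 27, 14 were lower and 13 higher in aged samples, while 52.6% of all genes were lower. Only 1 had an unadjusted limma p under 0.05, against 4.78% of all genes. That gene was Rtp1, a transport protein for odorant receptors, with 75.5%, 75.8% and 76.0% in aged, against 77.2%, 78.1% and 77.0% in mAdu samples (difference -1.65 points, limma adjusted p = 0.925). Trpc2, the transduction channel of vomeronasal neurons, averaged 84.7%, and Omp, a marker protein of mature olfactory neurons, 79.0%. The next by p were Meis2 at 71.8%, Lhx2 at 26.1%, both transcription factors, and H2-M9, a class Ib major histocompatibility gene, at 69.4%. Gnao1 averaged 72.7% over its span and Gnai2, which many cell types express, 36.4%.

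The cell type of the samples was checked on marker genes over the same span plus 2 kb. The 6 endothelial markers averaged 8.04% to 61.5%, the 3 epithelial ones 71.1% to 74.4%, the 2 haematopoietic ones 70.1% to 74.4% and the 2 mesenchymal ones 58.5% to 62.7%. Among the 28 loci, aged replicate 2 was the lowest sample in 13 and mAdu replicate 2 the highest in 8.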

How the data were processed

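Tagmentation-based whole-genome bisulfite libraries were made from 30 ng of DNA per sample and sequenced in paired reads of 100 bases, per the labels' protocols. BWA 0.7.8 and mm10 were used, per the submitters' processing notes. The sources used here do not give the CpG caller, any coverage filter or any smoothing. Per window of 1000 bp, the deposited values are the authors' mean methylation of each sample as a fraction; fractions were multiplied by 100. Depth is unknown, so no counting error could be given and windows were weighted equally. Windows lacking a value in any sample were left out. Gene spans and promoters came from RefSeq tables of GRCm38.p6. Members and lists were chosen with earlier results of these data known.

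Single values per sample were compared by exact two-sided permutation tests (3 samples against 3, smallest p 0.1; sign flips over 6 samples for window classes). All windows, and genes with at least 3 windows, were fitted on the percent scale with limma (3.58.1, R 4.3.3) using a variance trend, Benjamini-Hochberg adjustment over the whole table and a threshold of 0.05. Some windows had the same value in every sample, which limma offset. Limma's fit of windows was tried on data simulated with normal noise from windows without extreme values. That trial does not cover the called member windows, which held extreme values. Named windows and genes were those past the threshold without overlap of the groups or, with fewer than 5 in a direction, the 5 with the smallest p; the 5 genes highest, lowest and richest in extreme windows (of at least 5 windows); the 10 lowest windows; the 6 loci with most windows; 9 receptors with studied ligands; and 4 genes of the list of the vomeronasal system. The runs of extreme windows, the loci beyond those 6, Vmn2r3, Vmn2r5, Trpc2, Omp, Gnao1 and Gnai2 were named after their values were seen. Alternatives changed the treatment of extreme windows, the scale, the variance trend, the flank, the members, the summary and the samples.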

Additional observations from a re-analysis of the deposited data

How the results depend on the processing

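The lower level of vomeronasal windows against all other, olfactory receptor and zinc finger windows kept its direction and an exact permutation p of 0.03125 under each setting run with all 6 samples. Leaving out 1 sample gave ranges of -8.80 to -8.27, -6.33 to -5.80 and -9.95 to -9.37 points, with an exact permutation p of 0.0625, the smallest that 5 samples allow. The same holds for the excess of extreme windows (4.82 to 5.05 points), the difference of Vmn2r from Vmn1r windows (4.94 to 5.77) and that of gene windows from flanks (1.72 to 2.13). The difference of Vmn2r from Vmn1r windows was 0.231 points without the locus with most windows and 0.278 points without the 3 loci with most extreme windows. That of gene windows from flanks was 0.930 points with flanks of 5 kb, -1.48 points without the first of these and -0.913 points without the 3 loci. The share of extreme windows with age turned to 0.0668 points with flanks of 5 kb and to 0.109 points without the 3 loci, and ranged from -0.448 to 0.0498 points on leaving out 1 sample. Settings that leave out loci were chosen after seeing the data. Limma's calls of member windows with age numbered 0 of 1809 without extreme windows (59 of 1654777 windows in all), 0 of 2009 on the logit scale (145 of 1683697 in all), 1 of 1480 with no flank, 5 of 2994 with flanks of 5 kb and 8 of 3443 with pseudogenes (355 in all each time), and 3 to 15 of 2009 on leaving out 1 sample (680 to 998 in all). Deviations of same-numbered samples correlated across all windows with r of -0.0116, -0.0167 and -0.000645, so the replicate numbers were not taken as pairs. With the replicate number as a block 1 member window was called (185 windows in all), Vmn2r38 missing the threshold at a limma adjusted p of 0.0859, and no other call of this text changed. Member genes called stayed at 0 under each setting run, and 8.75% (28 of 320, flanks of 5 kb) to 16.7% (9 of 54, genes of at least 10 windows) had an unadjusted limma p under 0.05, against 4.16% to 5.49% of all genes. With flanks of 5 kb the gene differences of Vmn1r149 and Vmn2r15 turned to 0.933 and 1.11 points. The causes of these changes were not tested. Unknown depth, the small share of the members' spans that the table covers and the unstated placing of reads among near-identical genes limit all of these values.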
